A study of Mus musculus with 24 samples.

Results

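Deletion of *Eset1* alone was read out in 6 of the 24 RNA-seq libraries of the series, 3 of *E1* cells and 3 of their untreated parent, named WT. These libraries were chosen by their sample labels. Of the 47937 genes in the count table, 18565 had enough counts across the series to be tested. The study inactivated up to 6 histone H3 lysine 9 methyltransferases (H3K9 KMT) in mouse embryonic fibroblasts (MEFs) and sequenced total RNA in 8 conditions with 3 biological replicates each. WT and *E1* are a single clone, E25 in the titles, which was grown from 1 sorted cell and picked for high Cre activity. The clone carries a conditional *Eset1* allele (genotype label Eset1 cKO) and a Cre recombinase that works only after 4-hydroxytamoxifen (4-OHT) has been added. WT cells (titles "ctr") were not given the drug. *E1* cells (titles "oht", genotype label Eset1KO) received a pulse of 4-OHT at 1 uM and then normal medium. The other 5 H3K9 KMT genes were not targeted in either condition. The treatment field of the labels is the same for every library, and the titles were followed. All *E1* libraries and no WT library came from cells given 4-OHT, so effects of the deletion and of the drug cannot be told apart within this clone. A derived clone, A4, with a frameshift in *Setdb2* (*Eset2*), was sequenced without and with 4-OHT under the labels *E2* and *E1E2*, and its 6 libraries serve for comparison. Per the study's methods, lines disrupted with CRISPR/Cas9, such as A4, were then given a further construct with inducible Cre and puromycin resistance. They were kept in puromycin.

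*Eset1*, listed as *Setdb1* in the annotation, encodes an enzyme that trimethylates lysine 9 of histone H3 and so helps to keep chromatin silent. It acts with the partner protein ATF7IP and is brought to DNA largely by KRAB zinc finger proteins through the corepressor TRIM28. It is best known for the repression of endogenous retroviruses, and also of germline genes, clustered gene families and some imprinted loci. Long terminal repeats (LTRs) of such retroviruses can serve as promoters for neighbouring genes.

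*Setdb1* (ENSMUSG00000015697, chromosome 3, 95323525 to 95357202, GRCm38) was read first. Its normalized counts, that is counts scaled by library size with edgeR's TMM factors, were 1612, 1478 and 1497 in WT and 994, 1092 and 1007 in *E1*. All 3 *E1* libraries lay below all WT libraries (log2 fold change -0.57, SE 0.08, edgeR adjusted p = 6.8e-06). The Cre recombinase removes only the floxed exons, so the rest of the transcript can still be counted. Total counts per library were 27646204 to 34986131 in WT and 30389949 to 35916678 in *E1*. Replicates differed by more than sampling noise, with a chi-square per gene of 5.04 to 68.3 where counting error alone gives about 1. WT replicate 2 stood apart: 2.79% of its counts were on SINE repeats, against 4.12% to 4.23% in the other WT libraries, and 3.01% of its gene counts were mitochondrial, against 1.81% and 1.86%. *E1* replicate 3 leaned the same way, with 2.42% mitochondrial counts against 1.70% and 1.94%. LTR repeats took 0.927% to 1.39% of all counts in WT and 4.02% to 4.64% in *E1*. Fibroblast markers were high in all 6 libraries, and of the 10 tested 2 fell at least 2-fold, *Dcn* and *Col3a1*. Their median log2 fold change was -0.40. In 5 of them all *E1* libraries lay below all WT libraries and in 1 above, against 12.9% and 14.3% of all tested genes. The summed level of 4 tested macrophage markers was 92.2 to 109 in WT and 95.0 to 103 in *E1*, the defining marker *Ptprc* had no count, and *Itgam* rose from 0 in WT to 3.91, 2.96 and 3.52. In bulk RNA, fewer cells of a type and less RNA per cell cannot be told apart.

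A gene was called where it differed at least 2-fold (log2 fold change of 1) with an adjusted p of at most 0.01 in edgeR's quasi-likelihood test. After *Eset1* deletion 790 of 18565 genes were called (4.26%). Of these, 421 were higher in *E1* (2.27%) and 369 were lower (1.99%). All *E1* libraries lay above all WT libraries for 420 of the 421, and below them for all 369. Over all tested genes this separation held for 14.3% upward and 12.9% downward. With the adjusted p alone, 6.72% of genes were higher and 6.6% lower, so most of the differences in the genome were smaller than 2-fold. The median log2 fold change was -0.01 over all genes, 2.07 over the higher genes and -1.58 over the lower genes.

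The median WT level of the higher genes was 8.82 normalized counts, that of the lower genes 96.5 and that of all tested genes 296. Among 3131 genes below 10 counts in WT, 219 rose and 10 fell. From 10 to 100 counts 141 of 4000 rose and 176 fell, and from 100 to 1000 counts 55 of 5871 rose and 136 fell. Above 1000 counts 6 of 5563 rose and 47 fell. A gene near 0 in WT passed the filter on low counts only where another condition was higher and had little room to fall, so the filter and the floor bear on the balance in the lowest class. For 36 of the higher genes no WT library had a count, and for 59 the 3 WT libraries held 1 to 3 counts in all, so the size of these rises is known only as a lower bound or within a wide interval. With each such gene set to its bound, 207 of the higher genes and 119 of the lower genes differed at least 4-fold, and 53 and 11 at least 16-fold. Small rises of near-silent genes were not detectable at this depth.

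**Figure D1:**
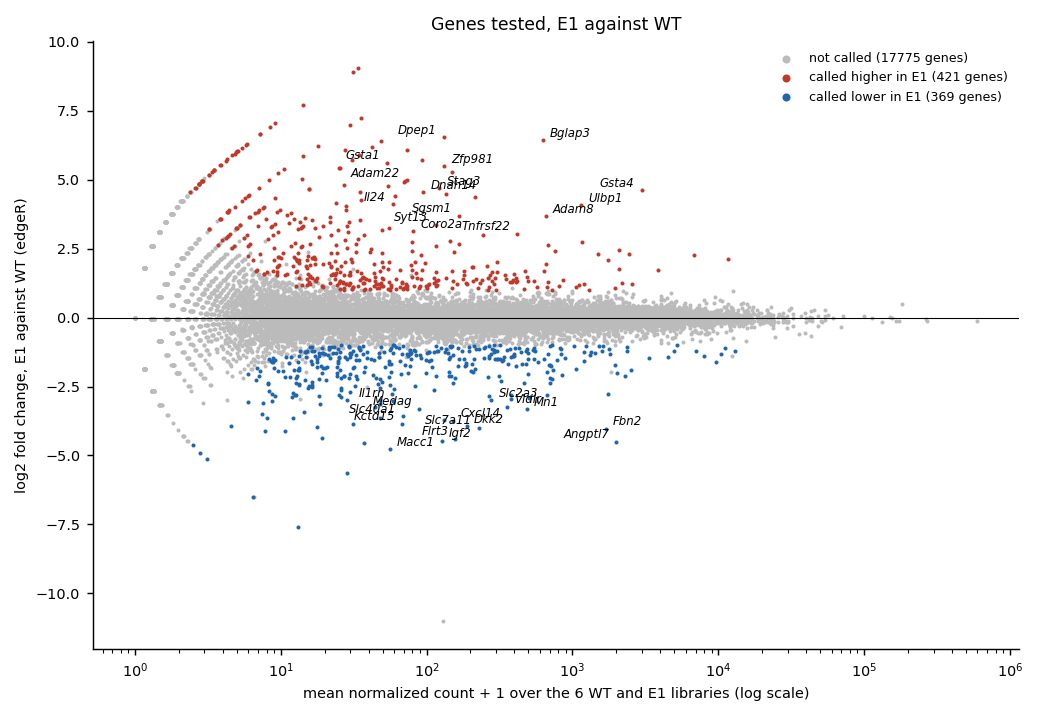
Log2 fold change of *E1* against WT (vertical axis) against the mean normalized count plus 1 over the 6 libraries (horizontal axis, log scale) for each tested gene. Called genes are coloured, 421 higher and 369 lower, and the higher genes reach farther to the low end of the scale.

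By annotated class, 342 of 13491 protein-coding genes rose and 329 fell. Of 500 lincRNA genes 30 rose and 9 fell, and of 102 unprocessed pseudogenes 10 rose and none fell. Predicted genes with provisional names made up 91 of the genes that rose and 34 of those that fell. Their number among all tested genes was not counted, so no called share of this group is given. The filter and the floor bear on the balance here too, where such genes are near silent in WT. On chromosome 17, which carries the MHC and the *Hspa1* genes, 30 of 836 genes rose and 6 fell. Over all chromosomes 2.27% of genes rose and 1.99% fell. Chromosome 13 had 26 higher and 10 lower among 693, and chromosome 4 had 37 higher and 16 lower among 1155. Chromosome 18 had 8 higher and 21 lower among 450, and chromosome 3 had 15 higher and 30 lower among 1095. On chromosome X 5 of 617 genes rose and 14 fell. By symbol, the families with at least 10 tested members and the largest called share were *Pcdhb* (8 of 13, all lower), *Wnt* (6 of 11), *Krt* (5 of 10, all higher), *Dnah* (4 of 10) and *Vmn* (9 of 25, all higher).

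The 15 largest rises among named protein-coding genes with at least 100 normalized counts in *E1* ran from 3.05 to 6.54 on the log2 scale. *Dpep1*, a membrane dipeptidase (chromosome 8, 123186242 to 123201812), had 0, 2.74 and 5.02 in WT and 257, 241 and 274 in *E1* (log2 fold change 6.54, SE 0.26, edgeR adjusted p = 5.0e-15). *Bglap3*, which is related to the bone matrix protein osteocalcin (chromosome 3, 88368616 to 88372743), had 9.59, 15.5 and 17.1 in WT and 1188, 1237 and 1286 in *E1* (log2 fold change 6.43, SE 0.12, edgeR adjusted p = 5.1e-21). In both, every *E1* library was far above every WT library. *Gsta1* and *Gsta4* encode alpha-class glutathione S-transferases, which couple glutathione to reactive compounds, and lie next to each other on chromosome 9. *Gsta1* had 2.13, 2.74 and 1.00 in WT and 99.6, 94.8 and 115 in *E1* (log2 fold change 5.62, SE 0.24, edgeR adjusted p = 1.9e-14), and *Gsta4* had 200.3, 299 and 199.7 in WT and 5558, 4862 and 6761 in *E1* (log2 fold change 4.61, SE 0.13, edgeR adjusted p = 1.1e-17). *Gsta1* was thus close to silent before deletion, while *Gsta4* was already transcribed, and the ranges were far from overlapping in each. Close paralogs in the *Gsta* family can share reads, so the split of counts between its members is uncertain.

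*Adam22*, a receptor for the neuronal protein LGI1 that lacks protease activity, had 2.13, 4.57 and 6.02 in WT and 144, 155 and 121 in *E1* (log2 fold change 4.98, SE 0.34, edgeR adjusted p = 9.8e-11). *Syt13*, a synaptotagmin, had 19.18, 17.4 and 24.1 in WT and 215, 206 and 205 in *E1* (log2 fold change 3.36, SE 0.17, edgeR adjusted p = 2.7e-13). *Sgsm1*, which regulates Rab GTPases, had 23.4, 21.0 and 27.1 in WT and 333, 301 and 286 in *E1* (log2 fold change 3.68, SE 0.14, edgeR adjusted p = 1.7e-15). The conditions did not overlap in any of the 3. *Ulbp1*, a ligand of the NKG2D receptor of natural killer cells, had 111, 133 and 139.5 in WT and 2059, 2184 and 2241 in *E1* (log2 fold change 4.07, SE 0.09, edgeR adjusted p = 2.7e-19). *Il24*, a cytokine of the IL-10 family, had 8.52, 7.31 and 3.01 in WT and 108, 82.9 and 137 in *E1* (log2 fold change 4.11, SE 0.27, edgeR adjusted p = 3.6e-11). *Tnfrsf22*, a decoy receptor for TRAIL, had 100.2, 85.8 and 84.3 in WT and 778, 746 and 708 in *E1* (log2 fold change 3.05, SE 0.09, edgeR adjusted p = 1.1e-17). *Ulbp1* and *Tnfrsf22* were moderately expressed before deletion and rose in all libraries by a similar amount. *Adam8*, a cell-surface metalloprotease, reached 1290.5, 1192 and 1173 from 111, 86.8 and 90.3, and *Coro2a*, an actin-binding coronin, 154, 155 and 120.5 from 19.18, 16.4 and 13.05, with log2 fold changes of 3.67 and 3.13. The zinc finger gene *Zfp981*, the meiotic cohesin *Stag3* and the dynein *Dnah14* complete the 15 and are described with their families below.

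**Figure D2:**
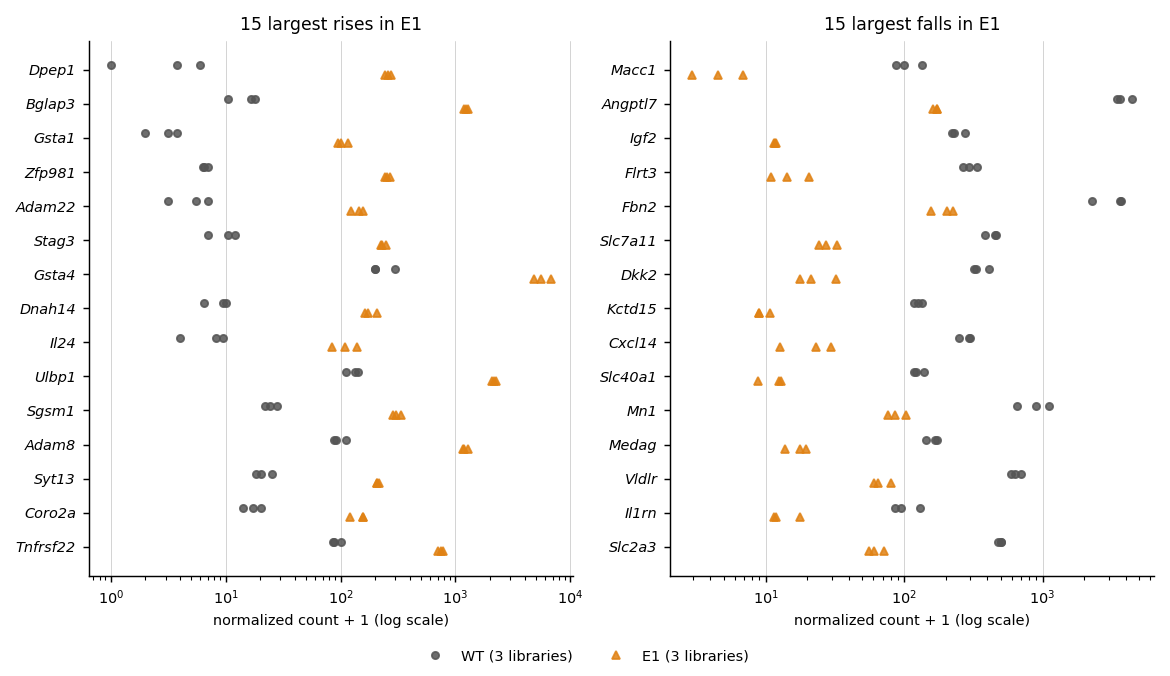
Normalized count plus 1 (horizontal axis, log scale) of each WT and *E1* library for the 15 largest rises and the 15 largest falls. The conditions do not overlap for any of these genes, as for *Dpep1* at 0 to 5.02 in WT and 241 to 274 in *E1*. Libraries with few counts, such as those of *Dpep1* in WT, lie farther apart on this scale.

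The 15 largest falls under the same rule, with at least 100 counts in WT, ran from -4.77 to -3.00. *Macc1*, which promotes expression of the HGF receptor (chromosome 12, 119314270 to 119469987), had 99.1, 133 and 86.3 in WT and 1.95, 5.92 and 3.52 in *E1* (log2 fold change -4.77, SE 0.32, edgeR adjusted p = 5.3e-11). *Angptl7*, a secreted angiopoietin-like protein (chromosome 4, 148495183 to 148500460), had 3463, 4454 and 3605 in WT and 173, 162 and 172 in *E1* (log2 fold change -4.50, SE 0.11, edgeR adjusted p = 2.0e-18). *Igf2*, the imprinted insulin-like growth factor (chromosome 7, 142650766 to 142666816), had 228, 221 and 273 in WT and 10.7, 10.9 and 10.6 in *E1* (log2 fold change -4.47, SE 0.23, edgeR adjusted p = 7.8e-13). All 3 were near or above 100 counts in every WT library and far lower in each *E1* library. *Flrt3*, an adhesion protein of the FGF receptor environment, had 267, 293 and 337 in WT and 19.5, 9.87 and 13.2 in *E1* (log2 fold change -4.39, SE 0.17, edgeR adjusted p = 2.3e-15). *Fbn2*, the microfibril protein fibrillin-2, had 3699, 2277 and 3621 in WT and 226, 204 and 155 in *E1* (log2 fold change -4.04, SE 0.17, edgeR adjusted p = 1.3e-14). WT replicate 2 was the lowest of the WT libraries for *Fbn2*, yet it lay far above the highest *E1* library.

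Among transporters, *Slc7a11*, the cystine and glutamate antiporter that feeds glutathione synthesis, had 380.4, 453 and 463 in WT and 23.4, 31.6 and 26.4 in *E1* (log2 fold change -3.99, SE 0.24, edgeR adjusted p = 8.1e-12). *Slc40a1*, the iron exporter ferroportin, had 121, 138 and 117 in WT and 7.82, 11.8 and 11.4 in *E1* (log2 fold change -3.58, SE 0.25, edgeR adjusted p = 1.1e-10). *Slc2a3*, the glucose transporter GLUT3, had 478, 499.5 and 503 in WT and 70.3, 55.3 and 59.8 in *E1* (log2 fold change -3.00, SE 0.19, edgeR adjusted p = 2.5e-11). Each fell in all *E1* libraries with no overlap. The secreted proteins *Cxcl14*, a chemokine, and *Il1rn*, the antagonist of the IL-1 receptor, fell by 3.75 and 3.02 on the log2 scale. *Cxcl14* had 299, 250.2 and 295 in WT and 11.7, 28.6 and 22.0 in *E1*, and *Il1rn* had 93.8, 129 and 85.3 in WT and 16.6, 10.9 and 10.6 in *E1*. The transcriptional coregulator *Mn1* fell by 3.33, *Kctd15* by 3.86 and *Medag*, a regulator of adipogenesis, by 3.31. *Medag* shares 896 exonic bases with the predicted gene *Gm20488* on the same strand, and *Igf2* shares 98 with *Igf2os* on the opposite strand. Whether the counting used strand is not given in the sources used here, so reads of such overlaps cannot be assigned with certainty.

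Of 26 genes for partners of SETDB1 in H3K9 silencing 3 rose and none fell, beside 2.27% higher over all genes, with a list median of 0.13. *Resf1*, the retroelement silencing factor that works with SETDB1, had 4368, 4377 and 4501 in WT and 18685, 20367 and 18279.7 in *E1* (log2 fold change 2.11, SE 0.07, edgeR adjusted p = 2.7e-16). *Atf7ip*, which stabilises SETDB1 and carries it into the nucleus, had 2008, 1457 and 1939 in WT and 6143, 6279.8 and 5441 in *E1* (log2 fold change 1.73, SE 0.09, edgeR adjusted p = 2.7e-13). Its relative *Atf7ip2* had 2.13, 3.65 and 1.00 in WT and 18.6, 33.6 and 19.3 in *E1* (log2 fold change 3.29, SE 0.46, edgeR adjusted p = 9.4e-06). Every *E1* library exceeded every WT library in all 3. These 3 calls were kept with each of the 6 libraries left out in turn. *Fam208a*, a subunit of the HUSH silencing complex also known as TASOR, had a log2 fold change of 0.85 with 1879, 1913 and 1773 in WT and 3173, 3651 and 3193 in *E1*, which is below the fold minimum (edgeR adjusted p = 2.0e-10). Of the other H3K9 KMT genes none was called. Their log2 fold changes were -0.20 for *Setdb2*, 0.08 for *Suv39h1*, -0.10 for *Suv39h2*, -0.04 for *Ehmt1* and 0.29 for *Ehmt2*, and the value of *Ehmt1* changed sign with single libraries left out.

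Germline genes are kept silent in somatic cells. Of the 76 on the list 25 had enough counts to be tested, and 6 of these rose and none fell, beside 2.27% higher over all genes, with a median of 0.52 against -0.01 over all genes. *Tdrd9*, a helicase of the piRNA pathway, had 1.07, 0.913 and 1.00 in WT and 86.9, 87.9 and 71.2 in *E1*, a ratio of 82.4 (95% interval 27.9 to 402), where the exact interval covers counting error only. *Stag3*, the cohesin subunit of meiotic chromosomes, had 9.59, 11.0 and 6.02 in WT and 247, 224 and 229 in *E1* (log2 fold change 4.69, SE 0.25, edgeR adjusted p = 1.6e-12). *Tex19.1*, which limits retrotransposons in germ cells, had 0, 2.74 and 4.01 in WT and 39.1, 42.4 and 48.4 in *E1* (log2 fold change 4.16, SE 0.36, edgeR adjusted p = 4.8e-09). None of the *E1* values of these 3 came near the WT values. *Dppa5a* had 0, 0 and 0 in WT and 4.88, 4.94 and 14.1 in *E1*, an at least 8.27-fold rise against the floor of 3 counts over the WT libraries. The others that rose were *Spo11*, which makes meiotic DNA breaks, and *Rhox5*, an X-linked homeobox gene. The other listed genes did not pass the filter on low counts, and a listed gene that is silent in WT could pass only by being present elsewhere in the series, so the share of 6 in 25 does not hold for the whole list. With only the 6 libraries in the fit, 3 of the 6 were called.

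Of 9 tested keratins, the intermediate filament proteins of epithelia, 4 rose and none fell, beside 2.27% higher over all genes. The other 41 of the 50 listed did not pass the filter on low counts, and a keratin near silent in WT could pass only where it was higher and could not fall, so the count does not hold for the family. *Krt8* had 18.1, 25.6 and 31.1 in WT and 129.9, 120.4 and 147 in *E1* (log2 fold change 2.40, SE 0.18, edgeR adjusted p = 3.1e-10), and *Krt19* had 157, 199 and 156 in WT and 388, 319.8 and 389.5 in *E1* (log2 fold change 1.10, SE 0.11, edgeR adjusted p = 4.3e-08). *Krt13* and *Krt16* reached at most 9.87 counts and lost their calls in some settings, so that 2 to 3 keratins were called with a library left out. The summed level of the 3 tested epithelial markers (*Epcam*, *Krt8* and *Krt14*) was 33.0 to 50.2 in WT and 132 to 167 in *E1*, nearly all of it *Krt8*, and its part in the result was not tested. Of the 10 tested *Dnah* genes, which encode heavy chains of axonemal dynein motors, *Dnah7a*, *Dnah14* and *Dnah6* rose and *Dnah7b* fell. *Dnah7a* had 1.07, 0.913 and 0 in WT and 51.8, 58.2 and 48.4 in *E1*, a ratio of 79.7 (95% interval 21.7 to 664). *Dnah14* had 8.52, 5.48 and 9.03 in WT and 161, 208 and 172 in *E1* (log2 fold change 4.55, SE 0.31, edgeR adjusted p = 9.0e-11). *Dnah14* shares 440 exonic bases with *Lbr* on the opposite strand, and *Dnah7a* and *Dnah7b* are close paralogs whose reads may have been split. Both rises were far above the WT values. *Cyp2b13*, a cytochrome P450, had no WT count and 44.9, 66.1 and 70.3 in *E1*, an at least 61.4-fold rise.

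Zinc finger genes with *Zfp* symbols, which include many KRAB repressors of retroelements, moved in both directions. Of 361 tested, 10 rose and 3 fell, shares of 2.77% and 0.831% beside 2.27% and 1.99% over all genes. *Zfp981* had 5.33, 5.48 and 6.02 in WT and 242, 255 and 271 in *E1* (log2 fold change 5.48, SE 0.20, edgeR adjusted p = 1.5e-15), and *Zfp600* had no WT count and 8.79, 10.9 and 17.6 in *E1*, an at least 12.7-fold rise. *Zfp804a* had 0, 2.74 and 0 in WT and 45.9, 48.4 and 48.4 in *E1*, a ratio of 48.0 (95% interval 16.1 to 236). The libraries of both conditions were well separated in these genes. The rest that rose were *Zfp37*, *Zfp558*, *Zfp978*, *Zfp979*, *Zfp980*, *Zfp986* and *Zfp988*. *Zfp503* had 515, 407 and 439.6 in WT and 160.2, 171 and 149 in *E1* and fell (log2 fold change -1.50, SE 0.12, edgeR adjusted p = 2.7e-09). *Zfp108* and *Zfp354b* also fell, from below 40 counts, and lost their calls in several settings. Many members of this family are similar in sequence, and their counts can share reads.

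Some called genes lay side by side. A run was counted where at least 3 neighbouring tested genes were called in the same direction, and 21 such runs were found. The longest covered 8 protocadherin genes of the *Pcdhb* cluster on chromosome 18, all lower in *E1*. Clustered protocadherins are adhesion proteins of which single neurons express different sets. *Pcdhb17* had 81.0, 102 and 83.3 in WT and 20.5, 17.8 and 21.1 in *E1* (log2 fold change -2.16, SE 0.23, edgeR adjusted p = 3.3e-07). *Pcdhb21* had 105, 136 and 112 in WT and 29.3, 30.6 and 29.0 in *E1* (log2 fold change -1.99, SE 0.21, edgeR adjusted p = 3.9e-07), and *Pcdhb16* had 43.7, 70.3 and 44.2 in WT and 5.86, 11.8 and 10.6 in *E1* (log2 fold change -2.48, SE 0.31, edgeR adjusted p = 3.6e-06). No *E1* library of these genes reached the lowest WT library. Over the list of clustered protocadherins, 8 of 35 tested genes fell and 2 rose, beside 1.99% and 2.27% over all genes, with a median of -0.73. The rest of the 57 listed, among them *Pcdhb6* and *Pcdhb8* to *Pcdhb15*, did not pass the filter on low counts. The count thus does not hold for the whole list, and the run is one of tested genes only. *Pcdhb22*, the next in the cluster, was not called (log2 fold change -0.76), and *Pcdhga11* and *Pcdhgb7*, which rose, share constant exons with all *Pcdhg* genes. With DESeq2, or with only the 6 libraries, 5 of the 8 were called, and *Pcdhb5*, *Pcdhb7* and *Pcdhb20* are the members that lost their calls in several settings.

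Other runs held rises. On chromosome 14, from 6087295 to 7174533, 7 predicted genes from *Gm3468* to *Gm3512* rose. *Gm3468* had 39.4, 53.9 and 39.1 in WT and 262, 308 and 288 in *E1* (log2 fold change 2.68, SE 0.15, edgeR adjusted p = 4.3e-12), *Gm3636* had 71.4, 93.1 and 87.3 in WT and 278, 286 and 260.3 in *E1* (log2 fold change 1.70, SE 0.13, edgeR adjusted p = 6.8e-10), and *Gm3411* rose from no WT count by at least 9.55-fold. A group on the same chromosome, from 3262340 to 3921640, held 4 more, including *Gm2956* and *Gm3005*. Genes of such an array can be near-identical copies, and their single values are uncertain. On chromosome 13, from 22844994 to 23282267, 6 neighbours rose that include *Vmn1r211* and *Vmn1r212*, which encode vomeronasal receptors for pheromones. *Vmn1r212* had no WT count and 31.3, 23.7 and 23.7 in *E1*, an at least 26.4-fold rise. Of the 25 tested *Vmn* genes 9 rose and none fell, beside 2.27% higher over all genes, and the members silent in WT could not fall. On chromosome 4, from 88758171 to 88800224, 5 predicted genes rose together, and of these *Gm10580* reached 62.5, 75.0 and 59.8 from no WT count. On chromosome 5, from 138264952 to 138388287, *Stag3* rose together with *Gpc2*, *Pvrig-ps*, *Gm43720* and *Gm10874*. On chromosome 9, from 78182774 to 78305525, *Gsta4* and *Gsta1* rose together with *Gm10639*.

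Other runs held falls. *H19*, *Igf2* and *Igf2os* on chromosome 7, from 142575529 to 142670356, fell together. *H19*, a maternally expressed noncoding RNA beside the paternally expressed *Igf2*, had 233, 233.8 and 259.9 in WT and 19.5, 12.8 and 22.0 in *E1* (log2 fold change -3.72, SE 0.18, edgeR adjusted p = 1.5e-12). Both genes of this oppositely imprinted pair thus went down in every *E1* library. In the same region *Syt8*, *Tnni2*, *Lsp1* and *Tnnt3* fell as well, with the uncalled *Mrpl23* between the groups (log2 fold change 0.12). Over the list of imprinted genes 31 of 49 in the count table were tested, and 3 rose and 4 fell, beside 2.27% and 1.99% over all genes. *Peg3* rose from 2 raw counts over the WT libraries to 18 over those of *E1*, and lost its call in some settings. *Cdkn1c*, an inhibitor of cyclin-dependent kinases, rose (695, 663 and 661 in WT and 1581, 1473 and 1539.6 in *E1*, log2 fold change 1.19, SE 0.08, edgeR adjusted p = 1.7e-10), as did *Plagl1*, a zinc finger factor (71.4, 53.9 and 72.3 in WT and 148, 169 and 152 in *E1*, log2 fold change 1.25, SE 0.15, edgeR adjusted p = 9.9e-07). *Grb10*, an adaptor that restrains insulin receptor signalling, was at the fold minimum with 6734, 7119 and 7016 in WT and 3467, 3519 and 3438 in *E1* and a log2 fold change of -1.002, so that its call came and went with single libraries. On chromosome 1, from 149829618 to 150164948, *Ptgs2*, the inducible cyclooxygenase, and *Pla2g4a*, the phospholipase that supplies its substrate, fell together with 2 antisense genes. At *Slit2* 5 predicted genes within its span fell with it, so that reads of these genes and of *Slit2* cannot be told apart without strand and splicing.

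**Figure D3:**
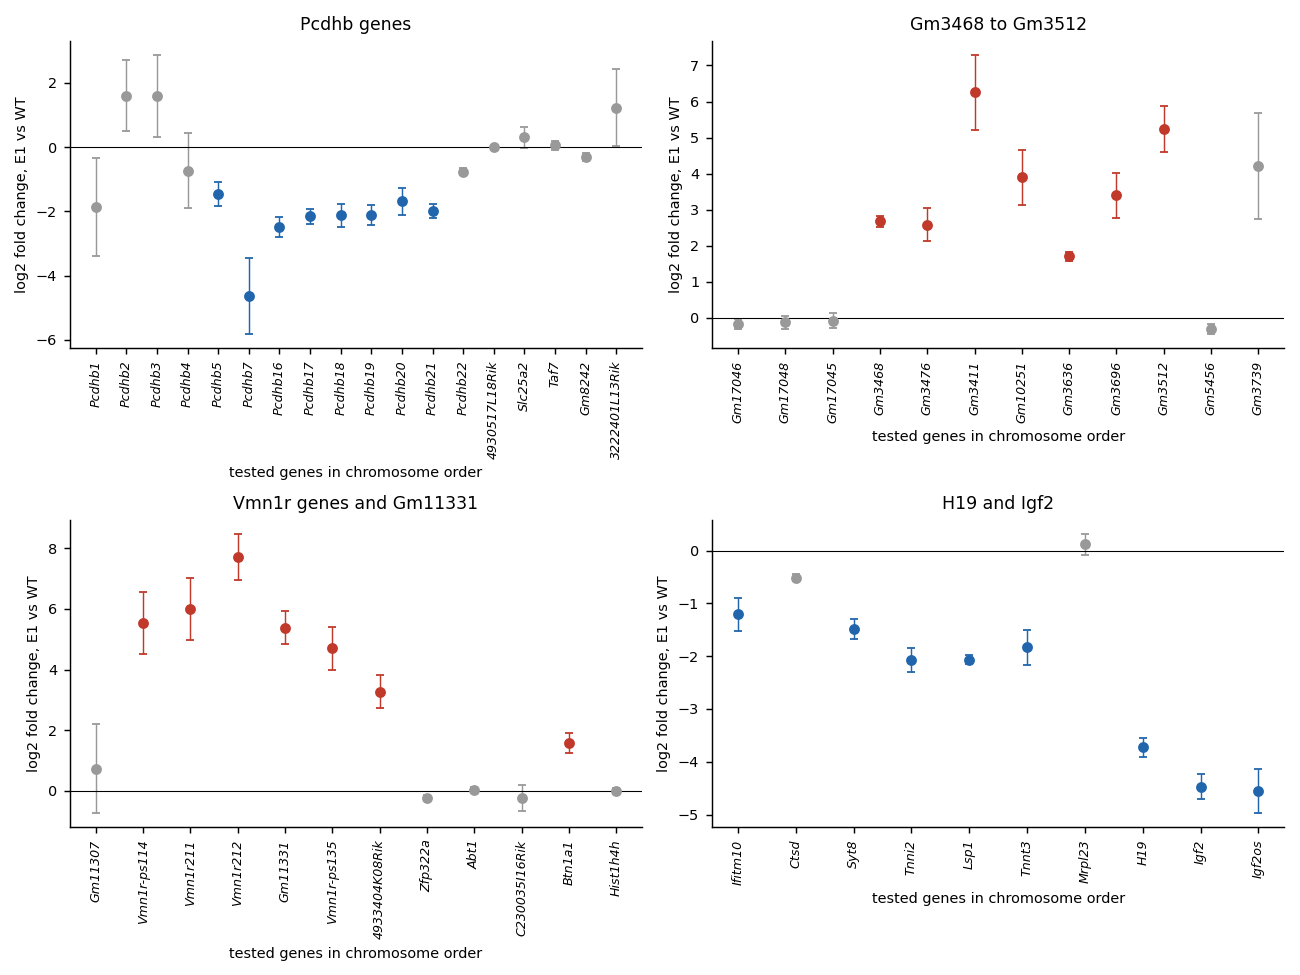
Log2 fold change of *E1* against WT with its SE (vertical axis) for each tested gene in chromosome order (horizontal axis) around 4 loci. Called genes are coloured and uncalled genes grey. At the *Pcdhb* cluster 8 neighbours are lower, at *Gm3468* 7 and at the *Vmn1r* genes 6 are higher, and at *H19* and *Igf2* 3 are lower beside the 4 from *Syt8* to *Tnnt3*.

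Interferon, a cytokine induced by foreign nucleic acid, switches on a set of antiviral genes. Of 85 such genes tested, 18 rose and none fell, 21.2% beside 2.27% of all genes, and at an unadjusted p under 0.05 with the same fold 28 were higher and 0 lower. The median log2 fold change was 0.57, 72 had a value above 0, and in 53 all *E1* libraries lay above all WT libraries, which held for 14.3% of all genes. Promoters of such genes carry elements bound by IRF and STAT factors. A pattern of this element, GAAANNGAAA on either strand, was searched in the 250 bases before the start of each gene in RefSeq (GRCm38.p6). It was present for 30 of 67 matched list members (44.8%), for 7 of 14 called ones (50%), for 20 of 284 matched genes that rose (7.04%), for 14 of 241 that fell (5.81%) and for 3.25% of all 11111 matched tested genes. Over all 27025 RefSeq promoters it was present in 3.46%. The 7 called members are counted among the 20. A match is a description of the letters only. The promoters of 3 genes that rose are given with the matches in capitals, which overlap in *Isg15* and *Oas1a*; *Isg15* was chosen after its values were seen.
*Isg15*, chr4:156200819-156201068, minus strand: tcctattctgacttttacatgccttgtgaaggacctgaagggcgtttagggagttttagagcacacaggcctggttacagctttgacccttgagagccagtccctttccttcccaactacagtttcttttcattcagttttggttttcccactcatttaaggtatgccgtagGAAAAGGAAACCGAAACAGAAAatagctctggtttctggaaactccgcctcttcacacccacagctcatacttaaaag
*Oas1a*, chr5:120907526-120907775, minus strand: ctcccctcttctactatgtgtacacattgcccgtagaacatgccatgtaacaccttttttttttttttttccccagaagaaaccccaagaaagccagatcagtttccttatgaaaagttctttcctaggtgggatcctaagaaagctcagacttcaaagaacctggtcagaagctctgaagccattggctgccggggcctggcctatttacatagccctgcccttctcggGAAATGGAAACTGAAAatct
*Oas3*, chr5:120777660-120777909, minus strand: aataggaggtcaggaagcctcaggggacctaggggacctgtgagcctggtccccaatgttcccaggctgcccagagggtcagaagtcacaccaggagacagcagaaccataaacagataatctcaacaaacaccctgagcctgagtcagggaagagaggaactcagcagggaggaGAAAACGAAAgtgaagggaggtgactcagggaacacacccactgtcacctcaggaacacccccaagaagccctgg

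The largest rise of the list was that of *Oas3*, an oligoadenylate synthetase, which senses double-stranded RNA. It had 1.07, 2.74 and 3.01 in WT and 31.3, 27.6 and 26.4 in *E1* (log2 fold change 3.55, SE 0.72, edgeR adjusted p = 7.6e-04), and *Oas1a* had 6.39, 5.48 and 5.02 in WT and 26.4, 19.7 and 32.5 in *E1* (log2 fold change 2.21, SE 0.37, edgeR adjusted p = 8.3e-05). *Oas1b*, *Oas1g*, *Oasl1* and *Oasl2* also rose, and neighbours of this family can share reads. *Irf7*, a transcription factor that drives interferon genes, had 19.18, 16.4 and 17.1 in WT and 73.3, 57.3 and 73.9 in *E1* (log2 fold change 1.957, SE 0.44, edgeR adjusted p = 0.0022), and its call was lost without WT replicate 2 or 3, where the adjusted p was at most 0.0105. *Ifih1*, the cytoplasmic RNA sensor MDA5, had 456.1, 498 and 505 in WT and 1202, 1324 and 1201 in *E1* (log2 fold change 1.35, SE 0.08, edgeR adjusted p = 3.1e-12). In each of these genes every *E1* library was above every WT library. *Isg15*, the ubiquitin-like modifier, had 199, 314 and 207 in WT and 572, 482 and 739 in *E1*, and *Rsad2*, the antiviral enzyme viperin, 269.6, 267 and 310.1 in WT and 693, 711 and 728 in *E1*, with log2 fold changes of 1.31 and 1.33. *Xaf1* and *Lgals9* rose as well. The chemokines *Ccl5* and *Cxcl10* were near the thresholds and lost their calls in several settings, as did *Ifi204* without WT replicate 1. The transcription factor *Irf9* was not called, with a log2 fold change of 0.29, and *Ddx58*, the sensor RIG-I, had one of 0.51 (edgeR adjusted p = 0.0128). Leaving out single libraries gave 15 to 17 called members, and DESeq2 called 22.

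MHC class I molecules present peptides from inside the cell to T cells. Of 18 tested genes of this list 5 rose and none fell, beside 2.27% higher and 1.99% lower over all genes. *Tap1* and *Tap2* are among the 5 and are also counted among the interferon-stimulated genes that rose. *Tap1* and *Tap2*, the peptide transporter of the pathway, had 124, 81.3 and 87.3 in WT and 229, 219 and 222 in *E1* and 70.3, 60.3 and 78.3 in WT and 233, 220.1 and 227 in *E1*, with log2 fold changes of 1.21 (SE 0.17) and 1.71 (SE 0.13). *Psmb8*, a subunit of the immunoproteasome between them on chromosome 17, had 6.39, 6.39 and 8.03 in WT and 34.2, 33.6 and 38.7 in *E1* (log2 fold change 2.34, SE 0.34, edgeR adjusted p = 1.4e-05). No library of *E1* overlapped with WT in these genes. *H2-Q4*, *H2-T23* and *H2-T24* also rose, and the similarity of *H2* genes makes their counts uncertain. *H2-K1* and *H2-D1*, the classical class I genes, stayed under the fold minimum with log2 fold changes of 0.57 and 0.55 and edgeR adjusted p of 1.3e-04 and 3.1e-05. *Tap1* shares 212 exonic bases with *Psmb9* on the opposite strand. With a library left out 3 to 5 of the 18 were called.

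In the integrated stress response the factor ATF4 raises genes of amino acid supply. Of 38 tested genes of this and of the unfolded protein response 7 fell and none rose, 18.4% beside 1.99% of all genes, with a median of -0.22. With the adjusted p alone 17 were lower and 6 higher, against 6.6% and 6.72% of all genes. Those 6 were chaperones of the endoplasmic reticulum and their helpers, among them *Hspa5* (log2 fold change 0.29) and *Hyou1* (0.52). The composite element bound by ATF4 and C/EBP factors was searched as TGATGNAA on either strand in the same windows. It was present for 8 of 34 matched list members (23.5%), for 5 of 6 called ones (83.3%), for 16 of 241 genes that fell (6.64%), for 7 of 284 that rose (2.46%) and for 2.502% of all matched tested genes, and in 3.91% of all RefSeq promoters. The 5 called members are counted among the 16, and here too a match describes the letters only. The promoters of 3 of the genes that fell are given, with the matches in capitals; *Chac1* was chosen after its values were seen.
*Slc7a11*, chr3:50443614-50443863, minus strand: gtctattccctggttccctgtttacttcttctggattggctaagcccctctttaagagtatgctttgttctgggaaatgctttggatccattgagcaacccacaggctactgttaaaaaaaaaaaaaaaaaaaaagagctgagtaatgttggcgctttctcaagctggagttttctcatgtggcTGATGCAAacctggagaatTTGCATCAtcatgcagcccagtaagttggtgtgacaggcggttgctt
*Chac1*, chr2:119350992-119351241, plus strand: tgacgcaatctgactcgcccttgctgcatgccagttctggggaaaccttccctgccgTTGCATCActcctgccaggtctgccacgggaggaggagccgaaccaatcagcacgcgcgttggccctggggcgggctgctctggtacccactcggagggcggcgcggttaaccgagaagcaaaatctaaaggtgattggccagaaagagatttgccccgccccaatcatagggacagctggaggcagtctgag
*Fgf21*, chr7:45615491-45615740, minus strand: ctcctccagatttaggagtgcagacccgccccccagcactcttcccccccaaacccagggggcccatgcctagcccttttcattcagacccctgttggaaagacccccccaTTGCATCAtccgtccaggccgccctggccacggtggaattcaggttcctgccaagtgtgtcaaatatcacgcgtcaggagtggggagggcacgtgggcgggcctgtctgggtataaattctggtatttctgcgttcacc

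*Slc7a11*, whose values are given above, carries 2 of these matches and fell the most of the list. *Vldlr*, a lipoprotein receptor, had 629, 593 and 702 in WT and 79.1, 59.2 and 64.2 in *E1* (log2 fold change -3.25, SE 0.12, edgeR adjusted p = 8.2e-16). *Trib3*, a pseudokinase that dampens the response, had 1095, 1079 and 1137 in WT and 324, 309.9 and 353 in *E1* (log2 fold change -1.74, SE 0.08, edgeR adjusted p = 2.9e-14), and *Fgf21*, a stress-induced hormone, had 21.3, 27.4 and 28.1 in WT and 3.91, 8.88 and 2.64 in *E1* (log2 fold change -2.32, SE 0.44, edgeR adjusted p = 4.4e-04). The WT and *E1* libraries of these genes were clearly apart. *Cth*, which makes cysteine, had 585, 850.2 and 638 in WT and 205, 212 and 227 in *E1*, and *Chac1*, which degrades glutathione, had 698, 628 and 683 in WT and 281, 284 and 302 in *E1*, with log2 fold changes of -1.69 and -1.21. *Nupr1* was at the fold minimum with -1.01. *Atf4* itself was not called, with a log2 fold change of -0.59 and 8522, 10817 and 9753 in WT and 6388, 6015 and 6981 in *E1* (edgeR adjusted p = 3.1e-06). *Asns*, asparagine synthetase, had -0.81 and *Sesn2* -0.87. Of 24 genes of cholesterol synthesis and uptake none was called by edgeR or DESeq2, but at an unadjusted p under 0.05 17 were lower and 1 higher, and with the adjusted p alone 12 were lower and 1 higher (6.6% and 6.72% of all genes), and the list median was -0.29. *Hmgcs1*, an early enzyme of the pathway, had 9395, 12838 and 10124 in WT and 7277, 7603 and 7942 in *E1* (log2 fold change -0.50), with every *E1* library below every WT library.

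Wnt ligands act through Frizzled receptors and are held in check by secreted modulators. Of 37 tested members of the pathway 11 fell and 3 rose, 29.7% lower beside 1.99% of all genes, with a median of -0.34. *Dkk2*, which binds the coreceptors LRP5 and LRP6, had 329, 406 and 319 in WT and 31.3, 16.8 and 20.2 in *E1* (log2 fold change -3.95, SE 0.25, edgeR adjusted p = 3.2e-11). *Sfrp2* had 88.4, 74.9 and 88.3 in WT and 14.7, 8.88 and 7.91 in *E1* (log2 fold change -2.99, SE 0.20, edgeR adjusted p = 3.8e-10), and *Dkk3* had 1144, 1179.8 and 1145 in WT and 261, 255 and 253 in *E1* (log2 fold change -2.17, SE 0.12, edgeR adjusted p = 2.3e-12). Ligands went both ways. *Wnt5a*, *Wnt6*, *Wnt9a* and *Wnt10a* fell, while *Wnt4* and *Wnt7a* rose, the latter with 2.13, 2.74 and 6.02 in WT and 19.5, 22.7 and 23.7 in *E1* (log2 fold change 2.56, SE 0.34, edgeR adjusted p = 4.9e-06). The receptors *Fzd1* and *Fzd4* fell. *Axin2*, a feedback inhibitor that Wnt signalling itself raises, had 314, 185 and 264 in WT and 46.9, 44.4 and 75.6 in *E1* (log2 fold change -2.18, SE 0.18, edgeR adjusted p = 2.4e-09), and *Apcdd1*, another target, fell from 211 to 78.9 counts on average. The conditions did not overlap for *Axin2*. Each fit with a library left out called 11 members lower, and the fit of 6 libraries called 9.

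Of 44 tested genes of the BMP and TGF-beta pathway 5 rose and 7 fell, beside 2.27% higher and 1.99% lower over all genes. The ligand *Bmp4* had 1119, 1204 and 1252 in WT and 240.3, 261 and 253 in *E1* (log2 fold change -2.24, SE 0.11, edgeR adjusted p = 1.3e-13), and its secreted antagonists *Grem1*, with 3067, 3629 and 3031 in WT and 792, 811 and 818 in *E1* (log2 fold change -2.01, SE 0.10, edgeR adjusted p = 3.6e-13), and *Nog* fell too, as did the receptors *Tgfbr2* and *Bmpr1b* and the activin subunit *Inhbb*. The *Id* genes, immediate targets of BMP signalling that block basic helix-loop-helix factors, all rose. *Id1* had 212, 233.8 and 195 in WT and 536, 444 and 599.7 in *E1* (log2 fold change 1.30, SE 0.15, edgeR adjusted p = 8.0e-07), *Id2* had 37.3, 47.5 and 40.1 in WT and 111, 101 and 137 in *E1* (log2 fold change 1.48, SE 0.19, edgeR adjusted p = 2.5e-06) and *Id3* had 403, 451 and 327 in WT and 1005, 865 and 1004 in *E1* (log2 fold change 1.28, SE 0.17, edgeR adjusted p = 5.3e-06). *Id4* was below 10 counts throughout and lost its call in several settings. The 3 well-expressed *Id* genes had no overlap between conditions. Without single libraries 3 to 4 members were called higher and 5 to 7 lower.

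Of 39 tested growth factor ligands and receptors 8 fell and 2 rose, where 1.99% and 2.27% of all genes did. The list covers the FGF, PDGF and EGF families and also holds *Igf2*, *Hgf* and *Vegf* genes. Among its 8 lower genes, *Igf2* is counted in the imprinted list too and *Fgf21* in the stress response list. *Fgf7*, a paracrine factor for epithelia, fell from 1795 to 608 counts on average, and *Fgf10* had 35.2, 36.5 and 41.1 in WT and 11.7, 6.91 and 8.79 in *E1* (log2 fold change -2.03, SE 0.27, edgeR adjusted p = 9.8e-06). The EGF receptor ligand *Tgfa* rose (13.9, 10.04 and 5.02 in WT and 87.9, 77.0 and 95.8 in *E1*, log2 fold change 3.17, SE 0.20, edgeR adjusted p = 3.6e-11), as did *Vegfc*, a lymphatic growth factor (30.9, 30.1 and 36.1 in WT and 115, 140.2 and 109.9 in *E1*, log2 fold change 1.91, SE 0.16, edgeR adjusted p = 2.5e-09). *Hgf* and *Vegfa* were called lower but lost their calls in some settings. Of 39 semaphorins, plexins, netrins and Slit or Robo genes 3 fell (1.99% over all genes) and none rose. *Ntn1*, the axon guidance cue netrin-1, had 4269, 2774 and 4128 in WT and 925, 898 and 742 in *E1* (log2 fold change -2.12, SE 0.25, edgeR adjusted p = 1.0e-06). *Slit2* had 6997, 5698 and 7202 in WT and 2491, 2617 and 2269 in *E1* (log2 fold change -1.43, SE 0.07, edgeR adjusted p = 2.6e-13), and *Slit3* had 114, 77.6 and 112 in WT and 21.5, 14.8 and 14.1 in *E1* (log2 fold change -2.59, SE 0.28, edgeR adjusted p = 1.9e-07). Each *E1* library was below each WT library in all 3, and WT replicate 2 was the lowest of the WT libraries in all 3. Of the ephrins and Eph receptors *Epha7* was the single call, with 5.33, 4.57 and 6.02 in WT and 55.7, 72.1 and 59.8 in *E1* (log2 fold change 3.53, SE 0.25, edgeR adjusted p = 1.9e-10), and of the Notch pathway *Jag2*, with 117, 66.7 and 74.3 in WT and 237, 205 and 204 in *E1* (log2 fold change 1.33, SE 0.15, edgeR adjusted p = 2.7e-07).

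Of 49 tested matrix glycoproteins 9 fell and 1 rose, 18.4% lower beside 1.99% of all genes. *Fbln5*, fibulin-5, which is needed to assemble elastic fibres, had 1166, 1238 and 1149 in WT and 227, 242 and 214 in *E1* (log2 fold change -2.38, SE 0.07, edgeR adjusted p = 8.2e-17), and *Mfap5*, a microfibril protein, had 52.2, 54.8 and 62.2 in WT and 3.91, 3.95 and 3.52 in *E1* (log2 fold change -3.86, SE 0.32, edgeR adjusted p = 3.4e-09). With *Fbn2* and *Mfap2*, 4 genes of microfibrils and elastic fibres fell. *Thbs2*, *Postn*, *Dcn*, *Ogn* and *Igfbp4* are the other genes that fell. Of 28 collagens 3 fell and none rose, beside the same 1.99% lower. *Col6a1* and *Col6a2*, neighbouring genes for chains of the same trimer, had 7053, 6362 and 7309 in WT and 3183, 2975 and 2879.6 in *E1* and 3205, 2582 and 3166 in WT and 923, 918 and 895 in *E1*, with log2 fold changes of -1.20 (SE 0.07) and -1.71 (SE 0.10). *Col3a1* had 18515, 16422 and 19293 in WT and 8351, 7818 and 7474 in *E1* (log2 fold change -1.20, SE 0.07, edgeR adjusted p = 4.0e-12). Every *E1* library lay below every WT library for these collagen genes. Of 52 matrix proteases and inhibitors 5 rose and 3 fell, against 2.27% and 1.99% of all genes. The gelatinases differed in direction: *Mmp9* had 26.6, 13.7 and 22.1 in WT and 121, 149 and 141 in *E1* (log2 fold change 2.73, SE 0.23, edgeR adjusted p = 3.5e-09), and *Mmp2* had 93.8, 123.3 and 99.4 in WT and 17.6, 26.7 and 32.5 in *E1* (log2 fold change -2.03, SE 0.19, edgeR adjusted p = 2.1e-08).

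Among 53 genes of G1/S and replication, 66 replication-dependent histone genes, 37 genes of DNA damage signalling and repair, 29 *Hox* genes, 78 ribosomal protein genes and the 13 genes of the mitochondrial genome, none was called in either direction by edgeR or DESeq2. At an unadjusted p under 0.05, whatever the fold, edgeR gave 14 higher and 6 lower for G1/S, 5 and 0 for the histone genes, 5 and 9 for DNA damage, 2 and 7 for *Hox*, 0 and 1 for the ribosomal proteins and 0 and 1 for the mitochondrial genes. Where a list described above had calls in 1 direction only, DESeq2 also called none in the other. An unadjusted p under 0.05 in edgeR with the same fold gave 3 semaphorin or guidance genes higher, and 0 genes in the direction without calls for the SETDB1 partners, germline genes, keratins, MHC genes, stress response genes and collagens. With the adjusted p alone, 15 of 72 genes of G2 and mitosis were higher and 1 lower, against 6.72% and 6.6% of all genes. The single call there was *Foxm1*, a transcription factor of the mitotic programme, with 1770.0, 1271 and 1582 in WT and 3822, 3561 and 3432 in *E1* (log2 fold change 1.23, SE 0.08, edgeR adjusted p = 1.1e-10), which shares 144 exonic bases with *Tex52* on the same strand. Of 49 p53 targets 1 rose and 2 fell, 2.04% and 4.08% beside 2.27% and 1.99% over all genes. The 1 that rose was *Tap1*, which is also counted in the interferon and MHC lists. *Cdkn1a*, the p53-induced inhibitor p21, had 217, 204 and 208 in WT and 225, 191 and 204 in *E1*, with a log2 fold change of -0.02. *Pmaip1*, the death-promoting protein NOXA, had 354, 489 and 342 in WT and 142, 161 and 176 in *E1* and fell (log2 fold change -1.31, SE 0.12, edgeR adjusted p = 2.2e-08). Of 14 heat shock genes 2 rose and none fell, beside 2.27% higher and 1.99% lower over all genes. *Hspa1a* had 2.13, 0 and 6.02 in WT and 78.2, 60.2 and 58.9 in *E1* and *Hspa1b* 126, 121 and 151 in WT and 363, 339.6 and 331 in *E1*, and these near-identical copies share reads. Of 18 tested glutathione S-transferases 4 rose and none fell, beside the same shares over all genes. Among them *Gstt1* had 125, 159 and 152 in WT and 414, 398 and 568 in *E1* (log2 fold change 1.66, SE 0.19, edgeR adjusted p = 7.8e-07), and *Gstp2* was below 10 counts. Of 31 immediate early genes *Dusp5* rose and 3 fell, beside 2.27% higher and 1.99% lower over all genes. *Nr4a1*, an orphan nuclear receptor, had 699, 433 and 579 in WT and 217, 246 and 213 in *E1* and fell (log2 fold change -1.34, SE 0.17, edgeR adjusted p = 3.0e-06). *Fos* and *Fosb* also fell, had their highest value in WT replicate 1 and lost their calls in some settings. With a library left out 1 to 4 of the list were called lower, and with only the 6 libraries 1. Of the 9 tested oestrogen-responsive genes, a list kept because 4-OHT binds the oestrogen receptor, 1 rose and 1 fell, beside 2.27% and 1.99% over all genes. Of 21 genes named in the study, a choice made on these samples, 2 were called, *Irf7* and *Mapk10*, both higher. *Mapk10*, the kinase JNK3, had 0, 0.913 and 1.00 in WT and 15.6, 4.94 and 11.4 in *E1*, a ratio of 16.2 (95% interval 4.16 to 139).

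**Figure D4:**
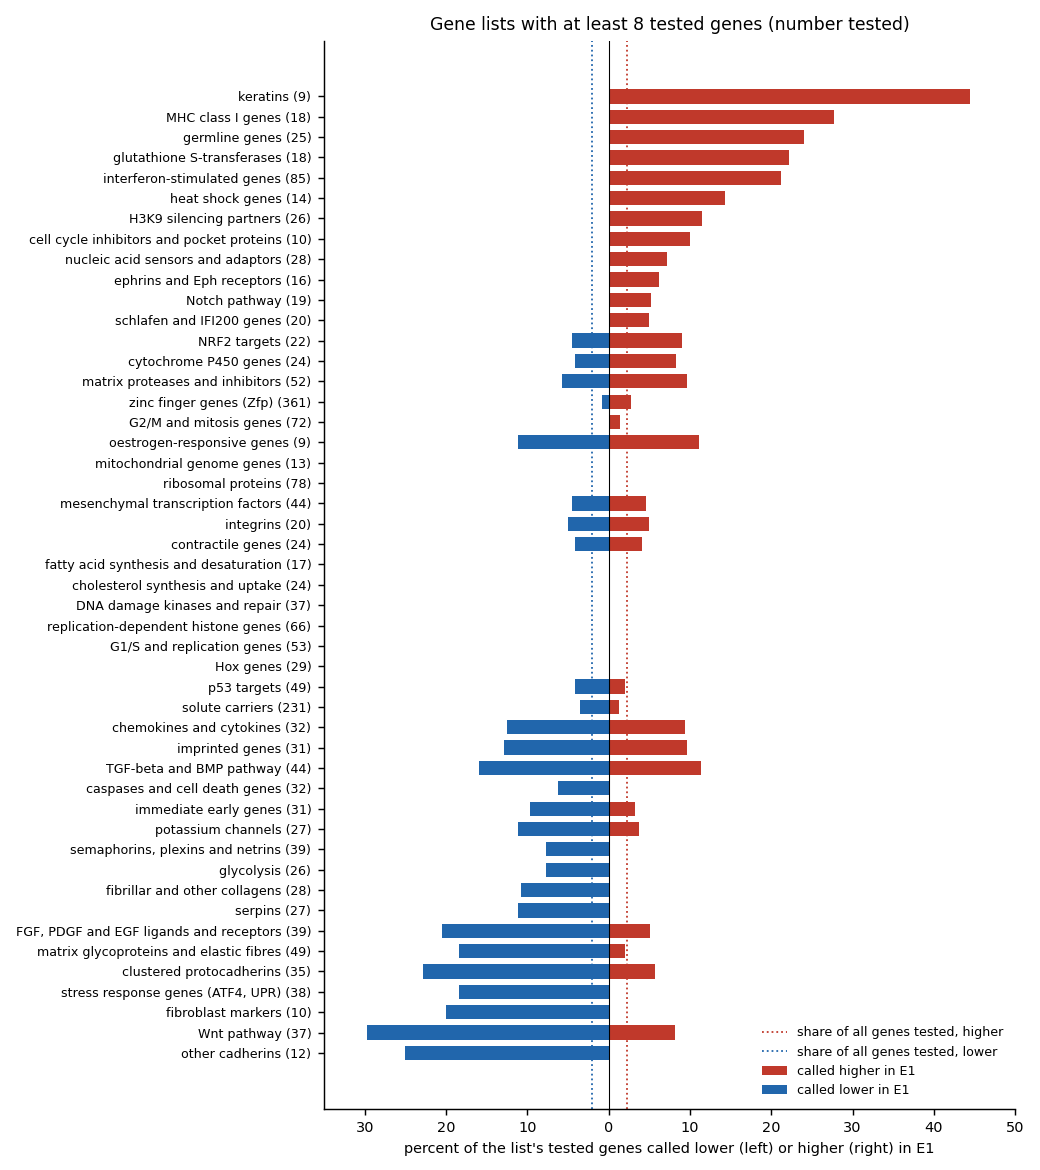
Share of tested members called higher (right) and lower (left) in *E1* (horizontal axis, percent) for the gene lists with at least 8 tested genes, with dotted lines at the shares over all genes, 2.27% and 1.99%. Interferon-stimulated genes reach 21.2% higher with none lower, and the Wnt pathway 29.7% lower.

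The same step of 4-OHT treatment in the A4 clone was compared through the libraries labelled *E2* and *E1E2*, which share no library with WT and *E1*. The comparison asks which genes moved in both clones. *Setdb1* RNA did not separate the libraries labelled *E2* (1284, 1018 and 1398) from those labelled *E1E2* (1267, 1187 and 1256), so this RNA gives no check of these labels, which were followed. All of these values lay below every WT library, and all but the 1018 lay above every *E1* library. LTR repeats took 2.66% to 3.39% of all counts in the libraries labelled *E2* and 2.89% to 2.95% in those labelled *E1E2*. Both ranges lay above the 0.927% to 1.39% of WT and below the 4.02% to 4.64% of *E1*. The libraries labelled *E2* thus did not start from the WT level of *Setdb1* RNA or of LTR repeats, and the reason was not tested. Exchanged labels would turn the sign of every A4 difference, and the values below hold for the labels as given. Between these conditions 430 genes were called higher (2.32%) and 122 lower (0.657%). Of the 421 genes that rose in *E1*, 77 were also among the 430 higher in the libraries labelled *E1E2*, and 18 were lower there. Of the 369 that fell, 44 were also among the 122 lower there, and 13 were higher. The median log2 difference in A4 was 0.40 for the first set and -0.15 for the second, beside 0.01 over all genes. The difference between the clones was tested directly as an interaction. It was called for 635 genes (3.42%), with 262 more positive in E25 (1.41%) and 373 more negative (2.01%). It was called for 200 of the 421 genes that rose and for 173 of the 369 that fell. These genes were chosen by their difference between *E1* and WT. That difference is a term of the interaction, so the choice itself raises both counts.

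All 15 of the largest rises and 13 of the 15 largest falls had a called difference between clones, *Medag* and *Cxcl14* being the exceptions. These genes were chosen for the size of the same term, so their counts do not measure how often the clones differ. *Dpep1* had a log2 difference of -1.04 in A4 and *Bglap3* of -1.60. The libraries labelled *E2* already held 495 to 645 counts of *Dpep1*, above every *E1* library, and 634 to 714 of *Bglap3*, between WT and *E1*. *Gsta4* had 4572 to 4942 counts there, a range that overlaps the lower end of that of *E1*. *Ulbp1* had 2246 to 2916 and *Resf1* 25246 to 31979, both above every *E1* library. Among the falls, *Angptl7* had 737 to 914 and *Igf2* 2.38 to 7.17 counts in the libraries labelled *E2*, below every WT library. *Slc7a11* was different, with 274 to 540.1 counts there, a range that encloses that of WT, and a log2 difference of -1.02 within A4.

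Other genes had values of similar size in both clones, and their difference between clones was not called. *Ifih1* rose by 1.35 in E25 and had a log2 difference of 1.39 in A4, and *Irf7* had 1.957 and 1.97. Over the whole interferon list, however, 11 of 85 members had a called difference, more than the 3.42% over all genes. *Bmp4* had -2.24 and -1.94, *Trib3* -1.74 and -1.22, *Col3a1* -1.20 and -1.01 and *Col6a1* -1.20 and -1.08. For the stress response list 2 of 38 members had a called difference. For the Wnt list it was 9 of 37, and for the protocadherins 8 of 35, against the same 3.42%. *Dkk2* had a log2 difference of 0.01 in A4 and *Pcdhb17* of 0.37. A4 was derived from E25, lacks *Setdb2* and, as a CRISPR/Cas9 line, was given the further Cre construct and puromycin. Clone, *Setdb2* status, these steps and the start level of a gene therefore cannot be told apart here.

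**Figure D5:**
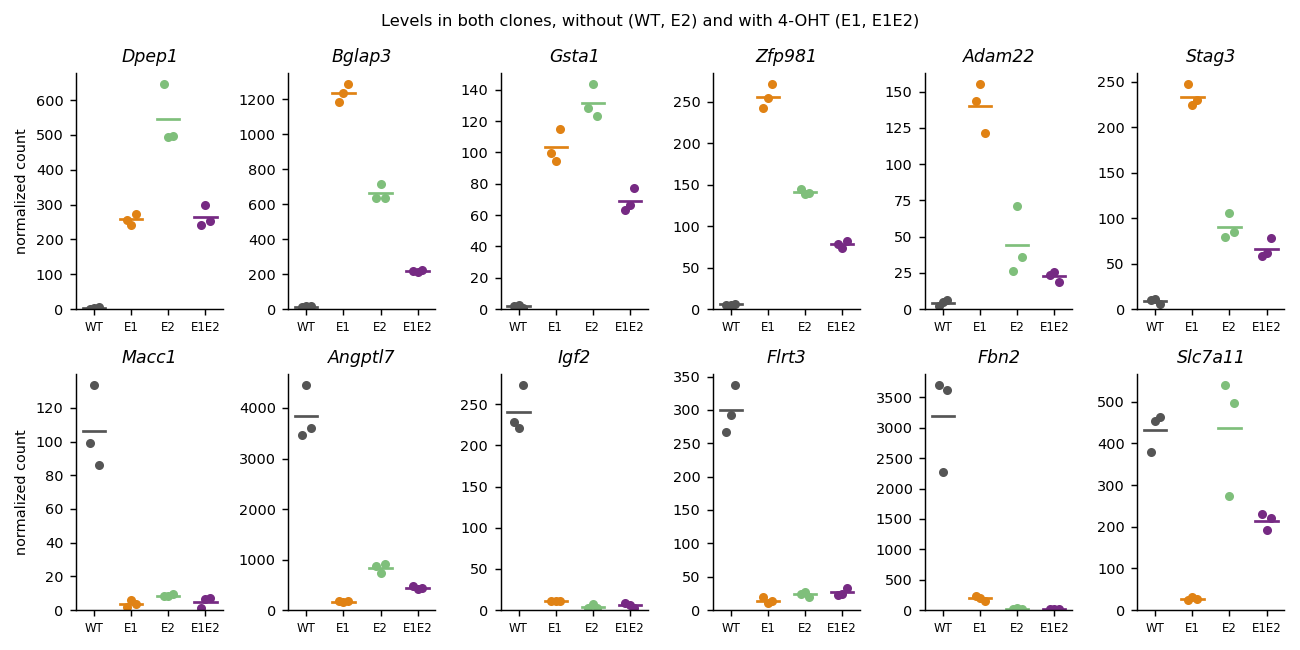
Normalized counts (vertical axes, each from 0) in each library of WT, *E1*, *E2* and *E1E2* for the 6 largest rises (top) and the 6 largest falls (bottom), with the mean of each condition as a line. *Dpep1* and *Gsta1* are far above WT in both conditions of A4, and *Slc7a11* spans the WT level in the libraries labelled *E2*.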

How the data were processed

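Total RNA of 24 libraries (8 conditions, 3 biological replicates each) was sequenced, and the 6 WT and *E1* libraries are the subject here, with *E2* and *E1E2* for comparison. The authors deposited whole-number read counts per gene and per repeat family, not normalized. Per the submitters' notes reads were trimmed with cutadapt 1.8.1 and aligned to GRCm38 with STAR 2.5.2b, and per the study's methods counted with TEtranscripts, which also assigns reads that map to several places, so genes that hold repeats can gain or lose counts. Trimming and alignment were not repeated. Whether the counting used strand is not given in the sources used here. All columns matched a sample title. 1 malformed entry (at most 0.0027% of the counts of a library) was left out. Library sizes and factors were computed on the 47937 gene entries.

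Counts were tested with edgeR 4.0.16 (limma 3.58.1, R 4.3.3): filterByExpr by condition, TMM factors, glmQLFit with 1 coefficient per condition over all 24 libraries, glmQLFTest, two-sided, Benjamini-Hochberg over 18565 genes. Calls needed a 2-fold difference and an adjusted p no higher than 0.01, the sizes the study uses, which does not say there that its p is adjusted. A normalized count is the count divided by the effective library size, scaled to the mean of all libraries. Where WT held no count, the fold was taken against a floor of 3 counts over the WT libraries, and for 1 to 3 counts as a ratio with its exact 95% interval; both cover counting error only. On simulated counts with 200 genes changed by 2 on the log2 scale edgeR recovered 178 (89%) and called 1 other, DESeq2 1.42.0 176 (88%) and 1, and the test of the difference between clones 162 (81%) and 1. The simulation gave every condition the same start level, the mean over all 24 libraries. The recovered shares thus do not hold for genes near silent in WT or with another start level in A4. Promoters are the 250 bases before the RefSeq start and matched 11111 of 18548 genes with a symbol. Coordinates are those of the GRCm38 annotation.

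The members, lists and tests were chosen with earlier results of these data known. Genes named with values were taken by rule: the 15 largest rises and falls (all libraries separated, at least 100 counts in the higher condition, protein-coding, no predicted-gene name), up to 4 called members per list and direction or the 2 highest in a list with none, the genes named in the study, the H3K9 KMT genes, members of the 5 symbol families with the highest called share and of the 3 longest runs. A further 23 genes were added after their values were seen: *Fam208a*, *Pcdhb22*, *Mrpl23*, *Gm10580*, *Isg15*, *Rsad2*, *H2-K1*, *H2-D1*, *Hspa5*, *Hyou1*, *Cth*, *Chac1*, *Nupr1*, *Atf4*, *Asns*, *Sesn2*, *Fgf7*, *Apcdd1*, *Spo11*, *Rhox5*, *Zfp37*, *Wnt5a* and *Postn*. Alternatives were RLE factors, DESeq2, other filters and thresholds, the 6 libraries alone, a replicate block and leaving out each library. Some genes that meet the rule are not reported here. Figures were drawn with matplotlib 3.10.9.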

Additional observations from a re-analysis of the deposited data

Results flagged for a closer look

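Many of the genes named here were chosen for a large *E1* minus WT difference, which is a term of the difference between clones. The difference between clones, (*E1* minus WT) less (*E1E2* minus *E2*), passed the edgeR test for 635 of 18565 genes, and for 90 of the genes named here. It does not show the level at which a gene started in A4. On the log2 scale, libraries labelled *E2* already lay above WT by 7.62 for *Dpep1*, 5.53 for *Bglap3*, 5.98 for *Gsta1*, 4.35 for *Ulbp1* and 1.06 for *Il24*. Those labelled *E1E2* lay above WT by 6.58, 3.93, 5.04, 4.42 and 3.02 for the same genes. A positive value of the difference between clones means a more positive difference in E25 than in A4, on the log2 scale. Among the 15 largest rises it was 8.04 for *Bglap3*, 7.59 for *Dpep1*, 6.56 for *Gsta1*, 6.33 for *Zfp981*, 6.02 for *Adam22*, 5.89 for *Gsta4*, 5.63 for *Sgsm1*, 5.15 for *Stag3*, 4.71 for *Dnah14*, 4.51 for *Syt13*, 4.00 for *Ulbp1*, 3.44 for *Adam8*, 3.34 for *Coro2a*, 2.45 for *Tnfrsf22* and 2.15 for *Il24*. Among the largest falls it was -5.01 for *Igf2*, -4.55 for *Flrt3*, -4.23 for *Il1rn*, -4.13 for *Kctd15*, -3.97 for *Macc1*, -3.96 for *Dkk2*, -3.58 for *Angptl7*, -3.30 for *Fbn2*, -2.97 for *Slc7a11*, -2.67 for *Slc40a1*, -2.34 for *Mn1*, -2.04 for *Vldlr* and -1.86 for *Slc2a3*.

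Among the other genes that rose in *E1* it was 5.18 for *Hspa1a*, 4.28 for *Epha7*, 3.91 for *Tex19.1*, 3.40 for *Gm3468*, 3.25 for *Krt8*, 2.69 for *Tgfa*, 2.12 for *Kcnn4*, 2.06 for *Pcdhga11*, 2.06 for *Resf1*, 2.03 for *Rhox5*, 1.99 for *Pcdhgb7*, 1.99 for *Zfp37*, 1.90 for *Gm3636*, 1.796 for *Wnt4*, 1.68 for *Wnt7a*, 1.66 for *Atf7ip*, 1.58 for *Slc5a5*, 1.58 for *Id1*, 1.52 for *Gstt1*, 1.39 for *Tap2*, 1.20 for *Foxm1*, 1.17 for *Id2* and 1.13 for *Id3*. Among the other genes that fell it was -3.71 for *Grem1*, -3.52 for *H19*, -3.51 for *Mfap5*, -3.07 for *Hgf*, -2.99 for *Pcdhb16*, -2.76 for *Postn*, -2.53 for *Pcdhb17*, -2.50 for *Pmaip1*, -2.34 for *Ntn1*, -2.24 for *Serpinf1*, -2.17 for *Inhbb*, -2.17 for *Fbln5*, -2.11 for *Serpinb1a*, -2.07 for *Pcdhb21*, -1.90 for *Wnt5a*, -1.90 for *Itgb8*, -1.88 for *Mmp2*, -1.65 for *Sfrp2*, -1.57 for *Dkk3*, -1.41 for *Slit2*, -1.26 for *Axin2*, -1.25 for *Nr4a1*, -1.10 for *Nog*, -1.07 for *Apcdd1* and -1.02 for *Zfp503*. For genes not called in E25 it was -1.32 for *Cdkn1a* and -1.19 for *Pcdhb22*. *Cdkn1a* had a log2 fold change of -0.02 in E25 and 1.30 in A4. For genes with almost no WT count the fitted size depends on the prior count and is no measure of the size of the difference: 11.01 for *Cyp2b13*, 9.26 for *Vmn1r211*, 9.26 for *Vmn1r212*, 9.20 for *Gm10580*, 6.84 for *Gm3512*, 6.58 for *Gm3411*, 6.55 for *Zfp804a*, 6.41 for *Zfp600*, 5.92 for *Slc47a1*, 5.80 for *Tdrd9*, 4.49 for *Dnah7a* and 4.13 for *Mapk10*. The direction in A4 rests on labels that *Setdb1* RNA did not separate.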

How the results depend on the processing

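The count of 421 genes higher in *E1* and 369 lower was 421 and 368 with RLE factors, 410 and 354 with DESeq2 (390 and 345 of them shared), 481 and 433 with no filter on low counts and 550 and 430 with an unadjusted p (DESeq2 524 and 421). It ran from 371 to 397 and from 326 to 372 with each of the 6 libraries left out in turn, and was 384 and 372 without WT replicate 2. It was 97 and 153 among genes with a mean normalized count above 100, where fewer genes were tested, and 1248 and 1226 with no fold minimum. With only the 6 libraries in the fit, which leaves fewer libraries to estimate the spread, 264 rose (260 shared) and 266 fell. The count of 635 genes that differed between clones was 642 with RLE factors and 669 with DESeq2, and ran from 565 to 662 with single libraries left out. The replicate numbers of the labels did not pair the libraries: deviations from the condition means correlated at 0.12, -0.29 and -0.21 between libraries of the same number, and WT replicate 2 correlated best with *E1* replicate 3 (0.39). Blocking on that number left 411 higher and 360 lower genes, and 620 between clones. In a fit of the 6 libraries with the block, chosen after seeing the data, they were 141 and 168.

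Of 192 called genes among the 248 looked at singly, 53 lost the call under at least 1 alternative. In the fit of 6 libraries it was 41, with DESeq2 17, with the block 5 and with RLE factors 1, and 36 lost it with some library left out. None of the 15 largest rises and 15 largest falls was among them. *Dnah6*, *Grb10*, *Hgf*, *Id4*, *Il18*, *Krt13*, *Myh11*, *Pcdhb5*, *Pcdhb7*, *Pcdhb20*, *Pdzk1*, *Peg3*, *Spo11*, *Zfp108*, *Zfp354b* and *Zfp980* lost it both with DESeq2 and with at least 1 library left out. The calls of *Mapk10*, *Rhox5*, *Dppa5a*, *Wnt6* and *Itgam* were lost in the fit of 6 libraries. Of 1120 list counts 66 moved by over 1.5 times. Uncalled genes near 0 changed sign with single libraries left out, with log2 fold changes of -0.015 to 0.29 for *Cdk1*, -0.14 to 0.023 for *Cdk4*, -0.17 to 0.063 for *Cdk7*, -0.085 to 0.032 for *Cdkn1a*, -0.14 to 0.028 for *Ehmt1*, -0.17 to 0.13 for *Fasn*, -0.12 to 0.077 for *Hist1h1e*, -0.22 to 0.077 for *Hist1h4d*, -0.15 to 0.015 for *Hoxc11*, -0.053 to 0.23 for *Mrpl23*, -0.70 to 0.18 for *Pou5f1*, -0.033 to 0.34 for *Pparg*, -0.0085 to 0.11 for *Rb1*, -0.26 to 0.066 for *Rpl4*, -0.13 to 0.10 for *Rpl8*, -0.33 to 0.0064 for *Tlr4*, -0.30 to 0.12 for *mt-Co1* and -0.29 to 0.17 for *mt-Nd1*. Low counts limit what can be called, and genes silent in both conditions were not tested.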

Other observations

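Among the serpins, inhibitors of serine proteases, 3 of 27 tested genes fell and none rose by edgeR or DESeq2, with 1 higher at an unadjusted p under 0.05 and the same fold. *Serpinf1*, the antiangiogenic factor PEDF, had 3047, 3129 and 3033 in WT and 468, 405 and 471 in *E1* (log2 fold change -2.78, SE 0.12, edgeR adjusted p = 4.0e-14), and *Serpinb1a* had 62.9, 94.1 and 75.3 in WT and 18.6, 13.8 and 16.7 in *E1* (log2 fold change -2.24, SE 0.25, edgeR adjusted p = 3.5e-07). The WT and *E1* libraries did not overlap in either gene. Of 12 tested cadherins outside the protocadherin clusters 3 fell and none rose by either tool, with 0 higher at that unadjusted p and fold. *Cdh11*, the cadherin of mesenchymal cells, had 50.1, 33.8 and 30.1 in WT and 6.84, 7.90 and 10.6 in *E1* (log2 fold change -2.14, SE 0.38, edgeR adjusted p = 1.9e-04). Of 20 integrins *Itgam* rose, with a call that was lost under at least 1 alternative, and *Itgb8*, which activates latent TGF-beta, fell (335, 335 and 325 in WT and 76.2, 97.7 and 80.9 in *E1*, log2 fold change -1.97). Of 27 potassium channel genes 1 rose and 3 fell. Over all genes 2.27% rose and 1.99% fell, and these shares stand beside every count here. *Kcnn4*, a calcium-activated channel, rose (91.6, 84.9 and 93.3 in WT and 333, 318 and 315 in *E1*, log2 fold change 1.84).

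Of 231 tested solute carriers 3 rose and 8 fell, shares of 1.30% and 3.46% beside 2.27% and 1.99% over all genes. The 3 that rose, *Slc47a1*, *Slc5a5* and *Slc4a8*, lost their calls under at least 1 alternative. *Slc16a3*, the lactate exporter MCT4, had 189, 151 and 237 in WT and 30.3, 34.5 and 27.3 in *E1* and fell (log2 fold change -2.64, SE 0.37, edgeR adjusted p = 1.1e-05). Of 22 targets of the oxidative stress factor NRF2 *Gsta1* and *Gsta4* rose and *Slc7a11* fell, with a median of -0.10. Of 44 mesenchymal transcription factors *Foxc2* and *Msx2* rose, and *Alx1* and *Gli2* fell. *Alx1* had 21.3, 36.5 and 32.1 in WT and 5.86, 10.9 and 8.79 in *E1* (log2 fold change -1.81), and *Gli2*, an effector of Hedgehog signalling, had 474, 299.5 and 395 in WT and 158, 147 and 116 in *E1* (log2 fold change -1.47). *Tubb3*, the tubulin used as a neuronal marker, had 676, 826 and 676 in WT and 1763, 1523 and 1751 in *E1* and rose (log2 fold change 1.21, SE 0.08, edgeR adjusted p = 6.3e-11), and the other 3 tested neuronal markers were not called. No *E1* library of *Slc16a3*, *Alx1*, *Gli2* or *Tubb3* overlapped with WT.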
